A study of Mus musculus with 13 samples.

Results

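The genes described here are Gfap, Vim, Osmr, Serpina3n, Cd44, Timp1, S1pr3, Steap4, Stat3 and Socs3, 10 of the 34745 genes counted in the olfactory bulb of mice exposed to PM2.5, the fine particle fraction of polluted air. They were picked by name as genes that reactive astrocytes are known to raise, together with Stat3 and its feedback inhibitor Socs3, and with their high-dose values in these libraries already known. Their high-dose values are therefore a description and carry no test, and whether their low-dose values were also in view is not known, so the low-dose tests are no independent support for the choice. All 10 were found in the table by symbol, each as 1 row.

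Astrocytes respond to injury and inflammation by building up intermediate filaments and secreting protease inhibitors, a state called reactive astrogliosis. A main route into it runs from cytokines of the interleukin-6 family, which bind receptors that share gp130 (Il6st), through JAK kinases to the transcription factor STAT3. In the olfactory bulb, GFAP is also made by olfactory ensheathing glia of the nerve layer and by astrocyte-like stem cells of the rostral migratory stream, so its RNA does not mark 1 cell type there.

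RNA sequencing covered 13 libraries of wild type C57BL/6 mice, labelled male and 7 to 8 weeks old, in 2 sets. In the 1st set, 3 libraries came from mice given PM2.5 at 3 mg/kg (labelled "/3 day", low dose) and 4 from untreated controls. The 2nd set held 3 libraries at 10 mg/kg with the same "/3 day" label (high dose) and 3 untreated controls. The labels used here give no route, number of doses, time to sampling or pooling of animals. They do not say that replicates are separate animals, so a p-value weighs a difference against the spread among libraries, which may be technical.

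Totals ran between 14336721 and 14665696 counts at the low dose, against 13032834 to 14095284 in its controls, and between 20227176 and 25548559 at the high dose, against 15387870 to 26989267 in its controls. The sets differ in expression of sex-linked genes. Xist, which silences an X chromosome in females, had 2245 to 2712 CPM (counts scaled to a common library total, the usual CPM unit) across the 1st set's 7 libraries, whereas the 2nd set's 6 libraries had 0.0992 to 0.555 CPM. The sum of 4 Y-linked genes was at most 0.210 CPM in the 1st set and 177 to 230 CPM in the 2nd, so the 1st set goes against its male label. The libraries of the 1st set also differ in Cx3cr1, a microglial chemokine receptor, which stood at 3.19 to 5.41 CPM in low-dose replicate 1 and control replicates 3 and 4 and at 29.8 to 54.9 CPM in the other 10 libraries. Without those 3 libraries, a choice made after the values were seen, the low-dose log2 fold changes were 0.10 for Gfap, 0.75 for Osmr, 0.58 for Socs3, 0.86 for Steap4, 0.28 for Serpina3n, 1.04 for Timp1, -0.77 for Cd44, -0.23 for S1pr3, 0.19 for Vim and 0.03 for Stat3, none of them called, and Gfap and Osmr stayed called at the high dose. Dose, set and the difference in sex-linked genes cannot be told apart, and each dose is compared with its own set's controls only. Markers of the labelled tissue were present. The sum of 7 markers of olfactory bulb neurons was 2095 to 2402 CPM at the high dose and 2484 to 2572 CPM in its controls, without overlap. That of 5 markers of neighbouring cortex and striatum was 94.1 to 145 CPM against 64.1 to 88.7 CPM, also without overlap. The reason for these differences was not tested. The sum of 10 astrocyte markers was 4262 to 4629 CPM at the high dose and 3438 to 4399 CPM in its controls.

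Gfap and Osmr stood highest above their controls at the high dose when the size of the difference is set against its error. Gfap encodes glial fibrillary acidic protein, from which astrocytes build most of their filaments. Its gene is ENSMUSG00000020932, on mm10 chromosome 11 from 102887336 to 102900912. It stood at 524, 646 and 450 CPM in the high-dose libraries (replicates 1 to 3), against 204, 247 and 181 CPM in the controls of the 2nd set. The groups did not overlap, and the means were 540 ± 98.6 and 211 ± 33.4 CPM (SD, n = 3 each), a log2 fold change of 1.36 (SE 0.16). In a bulk sample, more astrocytes and more Gfap RNA per astrocyte cannot be told apart. At the low dose Gfap stood at 285, 234 and 328 CPM, against 248, 275, 228 and 216 CPM in the controls of the 1st set, and the groups overlapped. The low-dose fold change was 0.23 on the log2 scale, with SE 0.14 and adjusted p = 1 (edgeR's quasi-likelihood test, Benjamini-Hochberg over 17467 genes).

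Osmr encodes the receptor subunit through which oncostatin M, a cytokine of the interleukin-6 family, signals with gp130 (ENSMUSG00000022146, chromosome 15, 6813577 to 6874969). It stood at 15.1, 23.5 and 12.2 CPM at the high dose, against 5.85, 5.37 and 5.25 CPM in its controls, with no overlap (log2 fold change 1.62, SE 0.21). In the low-dose libraries it stood at 18.2, 18.8 and 17.5 CPM, against 12.3, 9.15, 9.92 and 10.98 CPM in its controls. All 3 low-dose libraries lay above all 4 controls, with a coefficient of variation of 3.46% among themselves. The low-dose log2 fold change was 0.78 (SE 0.19), and it did not pass over all genes by edgeR's quasi-likelihood test (adjusted p = 0.5002), but it did in a separate fit of the 7 libraries of the 1st set (adjusted p = 0.0308). The controls of the 2 sets did not overlap for Osmr, with means of 5.49 ± 0.321 CPM in the 2nd set and 10.6 ± 1.38 CPM in the 1st (SD, n = 3 and n = 4). Its high-dose level of 12.2 CPM in replicate 3 was thus no higher than the 12.3 CPM of 1 control of the 1st set.

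**Figure D1:**
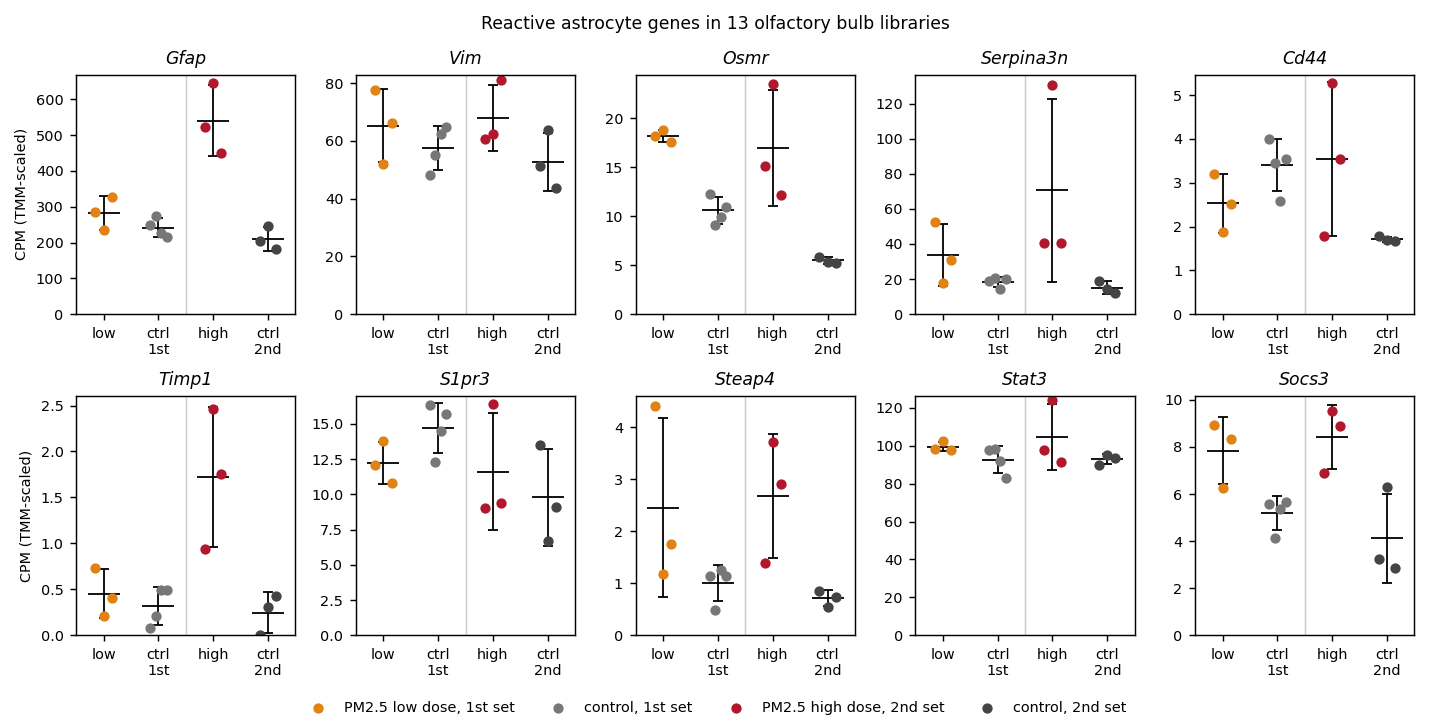
TMM-scaled CPM of each gene in every library (points), with the group mean (dash) and SD (bar), for the low dose and its controls, then the high dose and its controls. Gfap stands at 450 to 646 CPM in the high-dose libraries, above every other library, whereas Osmr stands at 12.2 to 23.5 CPM at the high dose and at 17.5 to 18.8 CPM at the low dose.

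Of the 10 genes, 2 (Gfap and Osmr) were called higher at the high dose in the fit over all genes, and none lower. Among all 17467 genes tested, 0.521% were called higher and 0.120% lower, and since the genes were chosen knowing these values, nothing is read from the count. All high-dose libraries lay above all their controls for 7 of the 10 and below them for none, against 6.08% and 4.36% of all genes. The median log2 fold change of the 10 was 1.20, where that of all genes was -0.01. Nothing is read from these values either, for the same reason. They include Timp1, which passed the count filter only through its high-dose libraries. The calls of Gfap and Osmr held in each of the 13 fits that left out 1 library. In a separate fit of the 6 libraries of the 2nd set neither was called, with adjusted p = 0.0635 for Gfap and 0.0986 for Osmr (edgeR).

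The stretch before the RefSeq start of a gene (GRCm38.p6, the build of the deposited coordinates) was searched for the letters to which STAT factors bind, TTCNNNGAA, which reads the same on both strands. The Gfap, Osmr and Steap4 sequences are shown from 250 bases before that start to 20 bases after it, on the gene's strand, with each match in capitals. Gfap and Osmr are the genes called, and Steap4 is shown as a further gene with a match. Their positions are chr11:102897181-102897450 (minus strand), chr15:6874294-6874563 (minus strand) and chr5:7960222-7960491 (plus strand).
Gfap: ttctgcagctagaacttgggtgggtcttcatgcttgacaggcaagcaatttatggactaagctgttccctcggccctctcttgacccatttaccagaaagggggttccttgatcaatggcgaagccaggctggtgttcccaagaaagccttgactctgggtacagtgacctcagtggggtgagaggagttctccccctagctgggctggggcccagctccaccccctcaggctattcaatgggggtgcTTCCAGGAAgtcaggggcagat
Osmr: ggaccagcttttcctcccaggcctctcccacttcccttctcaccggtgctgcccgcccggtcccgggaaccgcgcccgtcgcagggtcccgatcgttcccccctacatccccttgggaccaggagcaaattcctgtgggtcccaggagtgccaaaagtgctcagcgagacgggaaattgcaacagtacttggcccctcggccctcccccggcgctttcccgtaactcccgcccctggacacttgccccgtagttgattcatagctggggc
Steap4: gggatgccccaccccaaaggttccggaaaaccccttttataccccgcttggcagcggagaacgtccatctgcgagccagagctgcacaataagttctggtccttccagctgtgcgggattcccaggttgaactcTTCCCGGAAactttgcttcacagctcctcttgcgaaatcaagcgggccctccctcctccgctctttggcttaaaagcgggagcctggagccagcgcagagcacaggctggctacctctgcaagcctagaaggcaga

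In the 300 bases from 250 before to 50 after the start, 3 of the 10 genes held a match, Gfap, Steap4 and Socs3, and 8.30% of 32851 such windows of all genes did. Matches began 2 bases before the start in Gfap, 116 before in Steap4 and 154 before in Socs3. For Socs3, the bases checked after the RefSeq start were found in no GENCODE transcript of the gene, and its sequence is not shown. For the other genes such bases were found in a transcript, not necessarily at its beginning. The AP-1 letters TGANTCA, searched on both strands, were in 1 of the 10 windows (Osmr, from base 4 after the start) and in 7.81% of all. An NF-kB motif of 10 letters, on both strands, was in 3 (Vim, Serpina3n and Steap4) and in 1.63% of all. No match of these motifs overlapped another in a member's window. A match is a description of letters and not a measured site.

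Vim, which encodes vimentin, the filament partner of GFAP in reactive astrocytes and a protein of endothelium and fibroblasts too (ENSMUSG00000026728), stood close to its controls at both doses. It had 60.6, 62.4 and 81.1 CPM at the high dose, against 51.2, 63.6 and 43.6 CPM in its controls, and the groups overlapped (log2 fold change 0.36, SE 0.17). With the low dose it had 77.7, 52.2 and 66.1 CPM, against 48.1 to 64.8 CPM in its controls (0.18, SE 0.16, adjusted p = 1 with edgeR). Among 9 other intermediate filament and linker genes none was called at either dose. Their median log2 fold change was 0.06 at the high dose and -0.04 at the low dose. Synm, which encodes synemin, stood at 24.9, 22.7 and 27.2 CPM at the high dose, against 24.99, 16.8 and 21.0 CPM in its controls (0.26, SE 0.15, adjusted p = 0.671 with edgeR). The neurofilament genes Nefm and Nefh and the internexin gene Ina had log2 values of 0.21, -0.11 and 0.11, with adjusted p of 0.809, 0.930 and 0.853 (edgeR).

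Among the secreted inhibitors, exposed libraries differed widely from each other. Serpina3n, a secreted serine protease inhibitor of reactive astrocytes (ENSMUSG00000021091, chromosome 12), stood at 40.3, 131 and 40.8 CPM at the high dose, against 19.1, 14.2 and 11.9 CPM in its controls (log2 fold change 2.23, SE 0.51). No high-dose library overlapped a control, but replicate 2 stood more than 3-fold above the other high-dose libraries, and without it the log2 fold change was 1.42. In the low-dose group Serpina3n stood at 52.4, 17.7 and 30.6 CPM, against 18.7, 20.9, 14.4 and 20.05 CPM in its controls. Replicate 2 lay among the controls, and the log2 fold change of 0.86 (SE 0.47, adjusted p = 1 with edgeR) was 0.38 without replicate 1. Serpina3n lies in a family of near-identical copies, so the division of reads among them is uncertain. Of 7 listed copies only Serpina3g had enough counts to be tested, at 0.198, 0.201 and 1.08 CPM at the high dose, against 0.0658, 0.0773 and 0 CPM in its controls (adjusted p = 0.281).

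Timp1, an inhibitor of matrix metalloproteinases (ENSMUSG00000001131, chromosome X, 20870166 to 20874735), was the rarest of the 10 by counts. It had 19, 49 and 44 counts in the high-dose libraries, against 0, 8 and 7 in their controls, which are 0.943, 2.47 and 1.76 CPM against 0, 0.309 and 0.432 CPM (log2 fold change 2.71, SE 0.65). It reached the level of the count filter in 4 libraries, of which 1 was not high-dose, so it was tested only because it was high there. In low-dose libraries it had 11, 3 and 6 counts, against 1, 3, 7 and 7 in the controls (0.48, SE 0.73, adjusted p = 1 with edgeR), and without low-dose replicate 1 the log2 value was -0.06. Timp1 lies within Syn1, a synapsin gene on the opposite strand that averaged 504 CPM at the high dose and 560 CPM in its controls. Timp2, its relative, stood at 286, 279 and 299 CPM at the high dose, against 260, 278 and 238 CPM in its controls (0.16, SE 0.08, adjusted p = 0.547). Mmp14, a membrane-bound metalloproteinase, stood at 22.8, 31.8 and 26.7 CPM, against 24.9, 19.6 and 17.1 CPM (0.40, SE 0.14, adjusted p = 0.315, both with edgeR). Has3, which makes the hyaluronan that CD44 binds, had -0.60 (SE 0.25, adjusted p = 0.416), with all high-dose libraries below all controls.

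**Figure D2:**
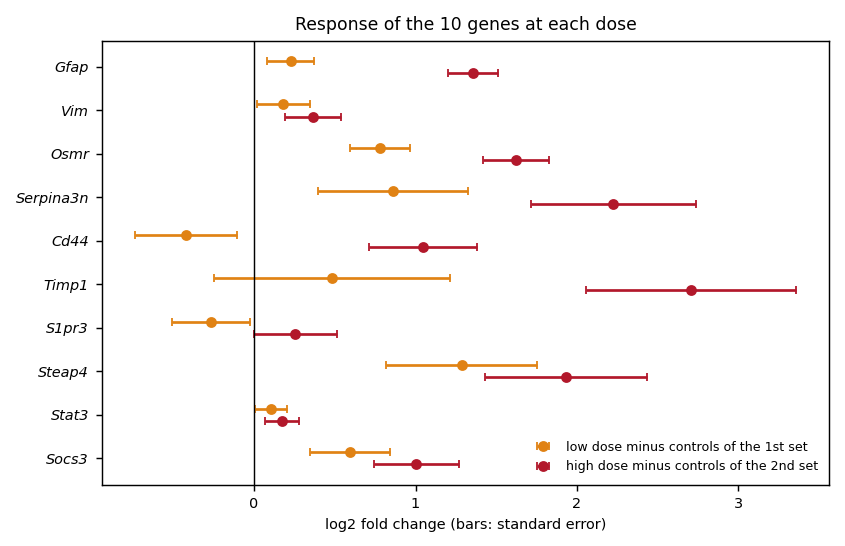
Log2 fold change of each gene at the low dose (orange) and at the high dose (red), each against its own set's controls, with standard errors. At the high dose all 10 values lie above 0, from 0.17 for Stat3 to 2.71 for Timp1, while at the low dose Cd44 and S1pr3 lie below 0. Of all genes, 47.2% lie above 0 at the high dose and 50.9% at the low dose.

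The surface proteins did not move alike. Cd44, the hyaluronan receptor of reactive astrocytes and leukocytes (ENSMUSG00000005087), stood at 1.79, 5.28 and 3.55 CPM at the high dose, against 1.78, 1.70 and 1.67 CPM in its controls (log2 fold change 1.04, SE 0.33). Replicate 1 was level with the controls, and without replicate 2 the log2 value was 0.64. In the low-dose group Cd44 stood at 3.21, 1.87 and 2.51 CPM, against 4.01, 3.45, 2.58 and 3.54 CPM in its controls (-0.42, SE 0.32, adjusted p = 1 with edgeR). As for Osmr, the controls of the 2 sets did not overlap, with means of 1.71 ± 0.0562 CPM in the 2nd set and 3.40 ± 0.593 CPM in the 1st (SD, n = 3 and n = 4), and the high-dose mean of 3.54 CPM stood at the level of the controls of the 1st set.

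S1pr3, a receptor for sphingosine 1-phosphate that reactive astrocytes carry (ENSMUSG00000067586), stood at 9.03, 16.4 and 9.38 CPM at the high dose, against 13.5, 6.72 and 9.13 CPM in its controls (log2 fold change 0.26, SE 0.25). The groups overlapped, and without high-dose replicate 2 the value was -0.09. Low-dose libraries had 12.1, 13.8 and 10.8 CPM of S1pr3, against 12.3 to 16.3 CPM in its controls (-0.27, SE 0.24, adjusted p = 1 with edgeR).

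Steap4, a metalloreductase of the cell membrane that inflammation is known to raise (ENSMUSG00000012428), stood at 1.39, 3.72 and 2.91 CPM at the high dose, against 0.855, 0.541 and 0.740 CPM in its controls (log2 fold change 1.93, SE 0.50). Under the low dose it stood at 4.41, 1.18 and 1.76 CPM, against 1.13, 0.493, 1.26 and 1.13 CPM in its controls (1.29, SE 0.47, adjusted p = 1 with edgeR). Replicate 1 of the low dose was the highest of all 13 libraries, and replicate 2 lay among the controls. Without replicate 1 the low-dose log2 value was 0.55.

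In the signalling pair, the inhibitor stood above its controls and the transcription factor much less so. Stat3 (ENSMUSG00000004040, chromosome 11, 100885098 to 100939540) stood at 97.7, 124 and 91.5 CPM at the high dose, against 89.9, 95.1 and 93.6 CPM in its controls, with overlap (log2 fold change 0.17, SE 0.11). The low-dose libraries had 98.5, 102 and 97.7 CPM, against 82.8 to 98.1 CPM (0.10, SE 0.10, adjusted p = 1 with edgeR). Its RNA level says nothing of the phosphorylation that activates the protein, and its annotated end overlaps Stat5a on the opposite strand. Socs3, which encodes the feedback inhibitor of gp130 receptors and is a direct STAT3 target (ENSMUSG00000053113), stood at 6.90, 9.51 and 8.90 CPM at the high dose, against 3.22, 6.30 and 2.84 CPM in its controls (1.01, SE 0.27). The low-dose libraries stood at 8.95, 6.24 and 8.33 CPM, against 5.59, 4.15, 5.38 and 5.67 CPM (0.59, SE 0.25, adjusted p = 1 with edgeR). In both sets every exposed library lay above every control for Socs3.

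None of the 10 genes was called at the low dose, as was the case for all 17467 genes (0%, smallest adjusted p 0.0737 with edgeR's quasi-likelihood test). At an unadjusted p under 0.05 there were 3 of the 10, Osmr, Steap4 and Socs3, all higher, against 2.46% of all genes in either direction and 1.31% higher. All low-dose libraries lay above all controls for 2 of the 10, Osmr and Socs3, and below them for none, against 3.71% and 2.91% of all genes. The median log2 fold change of the 10 was 0.355, where that of all genes was 0.00. Of the 10, 8 lay above 0, against 50.9% of all genes. DESeq2 called none of the 10 at the low dose but called 19 genes in all. The high and low responses were not shown to differ for any of the 10 with edgeR: the smallest adjusted p of the difference was 0.365, for Gfap, whose responses differed by 1.13 on the log2 scale (SE 0.21). With DESeq2 the adjusted p of the Gfap difference was 0.00306. The difference contains the high-dose values known when the genes were chosen, so for the 10 it is a description and no test. Among all genes 0.00573% had a called difference with edgeR.

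Within a group, the libraries differed in how far these genes stood above the controls. High-dose replicate 2 was the highest of its group for 9 of the 10 genes, the exception being Vim, and had a median deviation from the control mean of 1.505 on the log2(CPM + 0.5) scale, against 0.70 in replicate 1 and 1.09 in replicate 3. In the low-dose group replicate 1 was the highest for 6 genes and replicate 2 the lowest for 7, with medians of 0.53 in replicate 1, -0.04 in replicate 2 and 0.33 in replicate 3. Osmr, S1pr3 and Stat3 were highest in low-dose replicate 2 and Gfap in replicate 3.

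Markers of other cells differed between libraries too. At the high dose the neutrophil, endothelial, astrocyte and bulb neuron sums were highest in replicate 2, as most of the 10 genes were. The astrocyte sum was 4324, 4629 and 4262 CPM, and the bulb neuron sum 2359, 2402 and 2095 CPM. The sums of perivascular macrophages, red blood cells, mural cells and fibroblasts, ensheathing glia, olfactory epithelium and neighbouring cortex were highest in replicate 3. The sums of all 6 microglia markers and of neuroblast markers were highest in replicate 1. The sum of 7 neutrophil markers was 6.35, 9.61 and 8.02 CPM at the high dose, against 0.855 to 2.24 CPM in its controls, with Ly6g, Camp and Mpo at no more than 10 counts in any library. The sum of 6 perivascular macrophage markers was 19.2, 25.6 and 28.3 CPM at the high dose and 8.64 to 14.8 CPM in its controls. Red blood cell markers summed to 114, 208 and 302 CPM against 97.2 to 119 CPM, and 5 markers of neighbouring cortex and striatum to 94.9, 94.1 and 145 CPM against 64.1 to 88.7 CPM. The sum of 6 microglia markers was 421, 402 and 390 CPM at the high dose and 404 to 417 CPM in its controls. Sall1 made up much of that sum, at 223, 217 and 169 CPM against 224, 238 and 266 CPM, and the other 5 summed to 197, 185 and 221 CPM at the high dose and to 180, 179 and 145 CPM in its controls, a split made after the values were seen. Of the 6 microglia markers none was called, with Fcrls at 0.68 (SE 0.18, adjusted p = 0.123 with edgeR). Of 6 perivascular macrophage markers 1 was called higher at the high dose, Cd163, and their median log2 fold change was 1.15. Of 2 neutrophil markers tested 1 was called higher, S100a9. Among all genes 0.521% were called higher. The other marker lists held no called gene at the high dose. At the high dose 6 endothelial markers summed to 203, 252 and 202 CPM against 166 to 233 CPM. Low-dose neutrophil markers summed to 2.94, 2.43 and 1.69 CPM, against 1.06 to 2.27 CPM. Some other low-dose sums were highest in replicate 1 and lowest in replicate 2, as for several of the 10 genes. Perivascular macrophage markers stood at 30.6, 22.3 and 30.4 CPM against 19.4 to 29.9 CPM, and red blood cell markers at 117, 86.4 and 99.8 CPM against 40.1 to 109 CPM. Mural cell and fibroblast markers stood at 454.5, 305 and 358 CPM against 310 to 463 CPM, and endothelial markers at 261, 240 and 246 CPM against 237 to 274 CPM. Ensheathing glia and olfactory epithelium markers had the same order. Astrocyte markers did not, at 4021, 4151 and 4339 CPM against 4111 to 4286 CPM, nor did microglia markers, at 351, 378 and 398 CPM against 353 to 388 CPM. Bulb neuron, neuroblast and cortex and striatum markers were not highest in replicate 1 either. The 8 markers of olfactory ensheathing glia summed to 1044, 1036 and 1276 CPM at the high dose and 813 to 1265 CPM in its controls. Mural cell and fibroblast markers stood at 215 to 268 CPM against 182.5 to 273.5 CPM, neuroblast markers at 875.8 to 951.5 CPM against 891 to 989 CPM, and olfactory epithelium markers at 73.5 to 153 CPM against 78.1 to 146 CPM. The part of these cells in the values of the 10 genes was not tested.

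**Figure D3:**
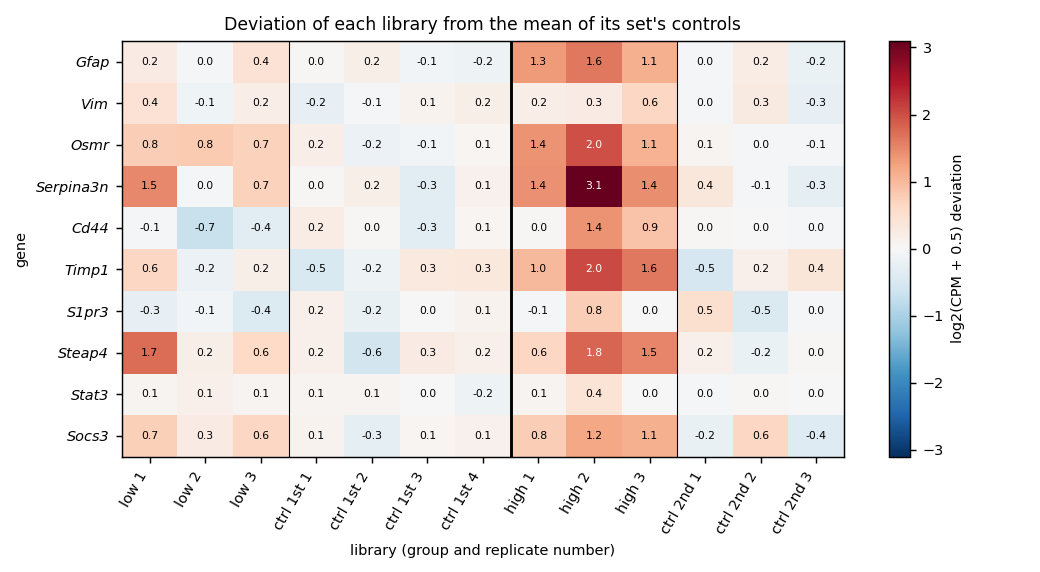
Deviation of each library (columns, by group and replicate) from the mean of its set's controls for each gene (rows), on the log2(CPM + 0.5) scale, red above and blue below. High-dose replicate 2 is the highest of its group for 9 of the 10 genes, and low-dose replicate 1 for 6.

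Per unit of length, Gfap was the most abundant of the 10 in every group. By the authors' FPKM it averaged 112 ± 20.5 at the high dose and 43.5 ± 6.08 in its controls (SD, n = 3 each), and 60.4 ± 10.2 at the low dose and 51.8 ± 5.23 in its controls (n = 3 and n = 4). Serpina3n came next in mean FPKM, at 33.6 ± 24.8 at the high dose and 7.16 ± 1.79 in its controls, where it did not differ from Vim (6.61 ± 1.14) beyond their spread. Stat3, S1pr3 and Socs3 followed, and Osmr (1.16 ± 0.405 FPKM at the high dose, 0.375 ± 0.0245 in its controls), Steap4, Timp1 and Cd44 were the least abundant. At the high dose S1pr3 and Socs3 (2.54 ± 0.911 and 2.52 ± 0.406 FPKM) did not differ beyond their spread, nor did Timp1 and Osmr (1.22 ± 0.540 and 1.16 ± 0.405 FPKM). The gene lengths implied by FPKM were 1 to 1.85 times the summed exons of GENCODE M21, so the order between genes depends on the authors' lengths.

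Outside the 10 genes, no tested gene of the ligand, receptor and kinase lists was called at either dose with edgeR. Osmr, among the 10 and itself a receptor subunit upstream of STAT3, was called at the high dose. Of 7 gp130 family ligands, 3 had enough counts to be tested with log2 fold changes of -0.29 to 0.02 at the high dose. Osm, the ligand of the oncostatin M receptor, Il6, Il11 and Ctf1 were too rare to be tested. Osm had 4, 8 and 5 counts in the high-dose libraries, against 1, 3 and 2 in their controls, and 4, 0 and 3 at the low dose, against 1, 2, 0 and 1. Clcf1 stood at 2.03, 2.01 and 1.40 CPM at the high dose, against 1.97, 2.43 and 2.16 CPM in its controls (-0.29, SE 0.33, adjusted p = 0.890 with edgeR). Lif (-0.29, SE 0.39) and Cntf (0.02, SE 0.48) had adjusted p of 0.900 and 0.997 (edgeR), and both signs turned when 1 library was left out. Of 8 receptor and kinase genes none was called, with a median of 0.08 and values of 0.00 to 0.51 at the high dose. Il6ra, the interleukin-6 receptor subunit, stood at 4.61, 7.20 and 4.03 CPM, against 4.54, 3.63 and 2.90 CPM in its controls (0.51, SE 0.24, adjusted p = 0.517), and was highest in replicate 2, as most of the 10 genes were. The shared subunit Il6st (0.14, SE 0.11), Lifr (0.14, SE 0.11) and the kinase Jak1 (0.10, SE 0.08) had adjusted p of 0.799, 0.801 and 0.793 (edgeR).

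Of 7 further inhibitors none was called. Ptpn6, which encodes the phosphatase SHP-1 of blood-derived cells and microglia, stood at 6.501, 6.69 and 6.83 CPM at the high dose, against 4.28, 3.94 and 4.13 CPM in its controls (0.70, SE 0.17, adjusted p = 0.0979). The groups did not overlap, and DESeq2 gave an adjusted p of 0.0262. Socs2, a relative of Socs3, stood at 21.4, 22.5 and 20.4 CPM, against 24.5, 24.7 and 27.6 CPM in its controls (-0.26, SE 0.10, adjusted p = 0.385 with edgeR). The phosphatases Ptpn2 (0.14, SE 0.09) and Ptpn11 (0.04, SE 0.07) had adjusted p of 0.721 and 0.951 (edgeR). Of 5 other STAT genes tested none was called, with Stat2 at 0.13 (SE 0.12), Stat6 at 0.07 (SE 0.10) and Stat5a at -0.09 (SE 0.14), and adjusted p of 0.819, 0.909 and 0.937 (edgeR).

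Of 9 genes known as STAT3 targets that were tested, 2 were called higher at the high dose with edgeR, Lrg1 and Cebpd. None was called lower, against 0.521% and 0.120% of all genes. The median of the 9 was 0.16. Lrg1, a secreted glycoprotein, stood at 2.33, 6.79 and 3.43 CPM at the high dose, against 0.395, 0.386 and 0.0617 CPM in its controls (log2 fold change 3.81, SE 0.60, adjusted p = 0.0101). Cebpd, a transcription factor of the acute phase response, stood at 11.3, 11.8 and 16.0 CPM, against 4.34, 6.42 and 2.96 CPM in its controls (1.49, SE 0.26, adjusted p = 0.0166 with edgeR), and it overlaps Spidr on the opposite strand. Both calls were lost without control replicate 3 of the 2nd set (adjusted p = 0.0558 for Lrg1 and 0.0662 for Cebpd) and in the separate fit of the 2nd set (0.0986 for Lrg1 and 0.189 for Cebpd). Bcl3, a nuclear partner of NF-kB, stood at 2.13, 3.32 and 0.918 CPM at the high dose, against 0.0658, 0.541 and 1.11 CPM in its controls, with overlap (1.86, SE 0.68, adjusted p = 0.343). Junb, an AP-1 subunit, stood at 26.3, 28.6 and 40.0 CPM, against 48.7, 98.9 and 63.8 CPM, all high-dose libraries lying below all controls (-1.16, SE 0.31, adjusted p = 0.161 with edgeR). DESeq2 called Junb lower (adjusted p = 0.0036).

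At the low dose none of these targets was called. Bcl3 stood at 3.67, 2.15 and 2.37 CPM, against 0.529, 0.493, 0 and 0.213 CPM in the controls of the 1st set (log2 fold change 3.13, SE 0.71, adjusted p = 0.5002 with edgeR). Lrg1 stood at 3.67, 1.04 and 2.78 CPM, against 0.227, 0.493, 0.419 and 0.142 CPM (2.93, SE 0.58, adjusted p = 0.359). For both genes the groups did not overlap, and DESeq2 called both (adjusted p = 0.0147 for Bcl3 and 0.00507 for Lrg1). Junb went the other way, at 42.7, 29.2 and 27.9 CPM against 46.6, 69.0, 88.4 and 51.7 CPM. All its low-dose libraries lay below all controls (-0.94, SE 0.29).

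Of 5 further genes of the general reactive astrocyte state, 2 were called higher at the high dose, Cxcl10 and Aspg. None was called lower, against 0.521% and 0.120% of all genes, and the median of the 5 was 1.35. These lists were drawn up with earlier results of these data known, so their counts are no independent support. Cxcl10, a chemokine that interferon induces, stood at 4.71, 3.98 and 4.79 CPM, against 0.395, 0.580 and 0.494 CPM in its controls (3.15, SE 0.40, adjusted p = 0.00242). Aspg, an asparaginase, stood at 4.57, 5.94 and 3.75 CPM, against 1.91, 1.51 and 2.22 CPM (1.35, SE 0.27, adjusted p = 0.0350 with edgeR), and its call was lost in 10 of the 13 fits without 1 library, with adjusted p up to 0.134 without high-dose replicate 2, and in the separate fit of the 2nd set (0.279). Lcn2, the siderophore-binding lipocalin, had the highest value, at 6.15, 19.2 and 19.0 CPM against 0, 0.309 and 0.494 CPM in its controls (5.70, SE 1.20), but did not pass (adjusted p = 0.0772). Without low-dose replicate 1, where Lcn2 stood at 13.8 CPM against 1.18 and 1.83 CPM in the other low-dose libraries, Lcn2 passed at the high dose (adjusted p = 0.0141). Cp, which encodes ceruloplasmin, stood at 20.3, 34.5 and 26.3 CPM, against 17.2, 10.5 and 6.97 CPM (1.23, SE 0.28, adjusted p = 0.0727 with edgeR). It passed without control replicate 1 of the 2nd set (adjusted p = 0.0133).

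Reactive astrocytes have been sorted into an inflammation-type set, first described after lipopolysaccharide, and an ischaemia-type set. Of 12 inflammation-type genes tested, 3 were called higher at the high dose, Gbp2, Iigp1 and Serping1. None was called lower, against 0.521% and 0.120% of all genes, and the median of the 12 was 0.63. Gbp2, an interferon-induced GTPase, stood at 6.85, 10.4 and 10.0 CPM, against 2.499, 2.74 and 3.21 CPM in its controls (1.69, SE 0.21, adjusted p = 0.00242), yet its controls in the 1st set stood at 5.06 to 7.60 CPM and its low-dose libraries at 4.88 to 6.44 CPM (-0.23, SE 0.20, adjusted p = 1). Its responses at the 2 doses differed by 1.92 (adjusted p = 0.0864 with edgeR). Iigp1, a further interferon-induced GTPase, stood 1.20 higher on the log2 scale (SE 0.19, adjusted p = 0.00845), and its call was lost without control replicate 3 of the 2nd set (0.0526). Serping1, the inhibitor of complement C1, had 0.79 (SE 0.15, adjusted p = 0.0304), and its call was lost in 6 of the 13 fits without 1 library, with adjusted p up to 0.127 without control replicate 3 of the 2nd set. Controls of the 1st set stood above those of the 2nd for these genes too, with Iigp1 between 5.52 and 6.24 CPM there, while the high dose had 5.06 to 6.75 CPM and its own controls 2.16 to 3.17 CPM. Serping1 had 9.28 to 13.7 CPM at the high dose and 6.48 to 7.04 CPM in its controls, with 10.1 to 12.03 CPM in controls of the 1st set. In the separate fit of the 2nd set all 3 calls were lost, with adjusted p of 0.0870 for Gbp2, 0.252 for Iigp1 and 0.366 for Serping1 (edgeR). Psmb8, an immunoproteasome subunit, stood at 1.21 (SE 0.28, adjusted p = 0.0702).

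Of 10 ischaemia-type genes tested, none was called at the high dose, and their median was 0.11. S100a10, a partner of annexin A2, stood at 24.6, 27.4 and 37.4 CPM, against 41.8, 53.3 and 53.5 CPM in its controls (-0.73, SE 0.16, adjusted p = 0.0506), and it passed with relative log expression factors (adjusted p = 0.0470) and with DESeq2 (adjusted p = 0.00224). Its controls in the 1st set stood at 16.0 to 21.0 CPM. Cd14, a lipopolysaccharide co-receptor, stood at 0.93 (SE 0.35, adjusted p = 0.355) and Cd109 at 0.82 (SE 0.35, adjusted p = 0.443, both with edgeR). Sphk1, a sphingosine kinase that makes the ligand of S1pr3, stood at -0.47 (SE 0.21, adjusted p = 0.482). Whether the inflammation-type and ischaemia-type sets differ was not tested. No gene of either set was called at the low dose, with medians of 0.16 and 0.03.

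**Figure D4:**
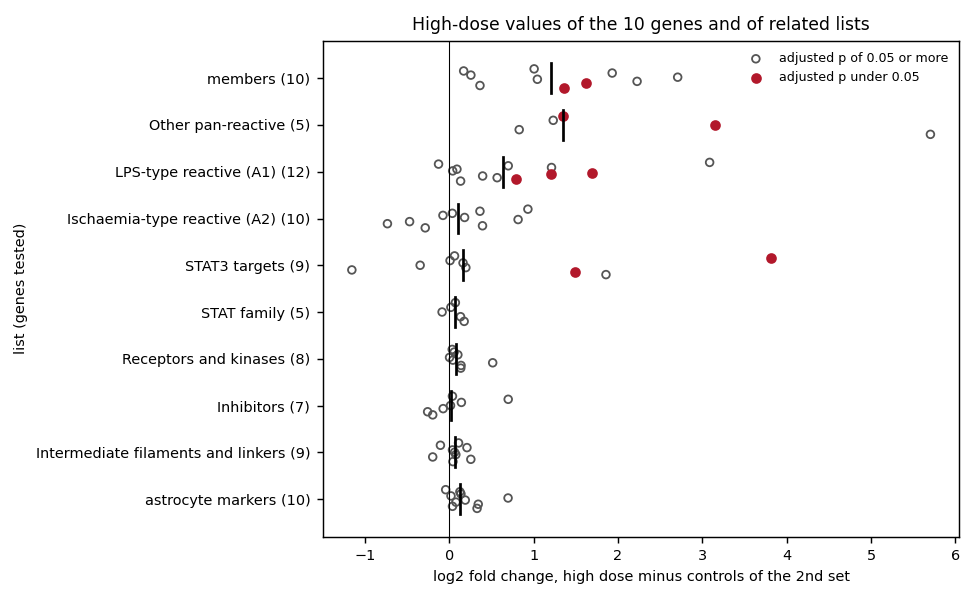
High-dose log2 fold change of the 10 genes and of genes in related lists (rows, with the number tested), with list medians as black lines and genes called over all genes as filled points. The 10 genes have a median of 1.20, the further general reactive genes 1.35, and the astrocyte markers 0.13.

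The 10 astrocyte markers that are not part of the reactive state had a median log2 fold change of 0.13 at the high dose and 0.03 at the low dose, and none was called. Gjb6, a gap junction protein, stood at 37.8, 45.0 and 51.2 CPM at the high dose, against 25.9, 32.4 and 24.3 CPM in its controls, with no overlap (0.70, SE 0.15, adjusted p = 0.0597 with edgeR), and it passed with DESeq2 (adjusted p = 0.00457). Slc1a2, the main glutamate transporter, stood at 2008, 2238 and 1770 CPM, against 2014, 1294 and 1435 CPM (0.34, SE 0.14, adjusted p = 0.389).

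The genes whose pattern over the 13 libraries was most like that of Gfap were sought among 16048 genes with a mean of at least 1 CPM, by the root mean square difference of their deviations from their set's controls (log2 scale). Outside the 10 genes, Spi1 (0.20), Bin2 (0.21) and Lcp1 (0.22) came first, 3 genes that brain tissue expresses mainly in microglia and macrophages. Spi1, a transcription factor of myeloid cells, stood at 4.07, 5.59 and 5.63 CPM at the high dose, against 2.10, 2.05 and 1.54 CPM in its controls, and at 2.47, 2.15 and 3.52 CPM at the low dose, against 1.98 to 3.17 CPM. Il4ra, an interleukin-4 receptor subunit, was among the 3 genes most like Osmr (0.27). Il4ra stood at 11.4, 14.2 and 18.02 CPM at the low dose, against 5.87 to 7.56 CPM in its controls, and at 11.1, 19.9 and 9.46 CPM at the high dose, against 3.88 to 5.87 CPM. Among the 10 genes themselves Gfap ranked 15 in likeness to Osmr (0.34), Socs3 ranked 33 (0.40) and Steap4 ranked 51 (0.43), while S1pr3 ranked 3703 (0.80). The likeness includes the high-dose values known when the 10 were chosen, so nothing is read from these ranks.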

How the data were processed

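The authors deposited, per the file headers, a raw count and an FPKM value per gene and library. The submitters' processing notes name HISAT2 and mm10; the counting program, annotation release, gene lengths and strand setting are not stated in the labels used here, so reads of genes on opposite strands may have been counted together. The members and lists were chosen with earlier results of these data known. Counts were tested in R 4.3.3 with the package edgeR 4.0.16 (filterByExpr, TMM factors, robust quasi-likelihood F test, 4 groups, 13 libraries, 9 residual degrees of freedom), with Benjamini-Hochberg adjustment over 17467 genes and a threshold of 0.05. Each SE was obtained from the log2 fold change and its F statistic. CPM uses the TMM-scaled total. Deviations used a pseudocount of 0.5 CPM. Of all genes, 34267 matched GENCODE M21 by identifier, 27699 with identical coordinates. Promoter sequences are from RefSeq (GRCm38.p6), and all 10 genes matched. Named genes were the 10, up to 4 genes of each list with the smallest high-dose p, and the 3 most alike to Gfap and to Osmr, of which some are not reported here. Gjb6 and Slc1a2 were named after their values were seen. No library pair agreed within sampling noise (lowest chi-square per gene 6.09). The test was tried on simulated data. Alternatives were DESeq2 1.42.0, other factors, other filters, separate fits, a replicate block and leaving out each library, and, added after seeing the data, the 3 libraries low in Cx3cr1. Among the named genes, Gfap, Cd44, Timp1, S1pr3, Stat3, Cebpd, Junb, Bcl3, Cxcl10, Cp, Aspg, Gbp2, Psmb8, Ptpn6, Jak1, Il6ra, Stat5a, Synm, Clcf1, Cd109, Stat6, Sphk1, Nefm, Ina, Has3, Slc1a2, Lcp1 and Il4ra share bases with a gene annotated on the other strand, so their counts are uncertain to that extent.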

Additional observations from a re-analysis of the deposited data

Results flagged for a closer look

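The Cd44 values lay on opposite sides of the control means at the 2 doses: every high-dose library stood above the mean of its controls and every low-dose library below that of its own, with high-dose replicate 1 and low-dose replicate 1 within 0.06 on the log2 scale. The responses differed by 1.47 on the log2 scale (SE 0.46), which did not pass over all genes with edgeR (adjusted p = 0.647). Steap4 had 1 control of the 1st set, replicate 2 at 0.493 CPM, apart from the other 3, at 1.13 to 1.26 CPM, with a gap of 0.838 of the group's range. Chance gives such a gap in about 1 group in 20.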

How the results depend on the processing

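Low-dose calls over all genes numbered 0, against 19 with DESeq2, 1 when every library had to reach 1 CPM and 9 in the separate fit, with 0 to 2 when 1 library was left out. High-dose calls numbered 112, against 291 with DESeq2, 73 with the stricter filter, 4 in the separate fit and 5 with the replicate block. Leaving out 1 library gave 21 (control replicate 3 of the 2nd set) to 138 (control replicate 2), with 65 without high-dose replicate 2 and 70 when the 1st set lacked its control replicate 2. Called differences between the responses numbered 1, against 17 with DESeq2, 2 with no count filter and 0 with the replicate block, and 0 to 6 with 1 library left out. Of the 10 genes, 2 were called at the high dose, 6 with DESeq2 (Serpina3n, Socs3, Steap4 and Timp1 besides Gfap and Osmr), 0 in the separate fit, 1 with the replicate block (Gfap), and 2 to 3 with 1 library left out. The stricter filter tested 8 of them. Same-numbered libraries did not deviate together (correlations of 0.01 to 0.058 in the 1st set and -0.318 to 0.135 in the 2nd), so no pairing by number was seen. So few pairs cannot exclude one. Signs turned for low-dose Timp1 (-0.058 to 0.81 with 1 library left out), the Stat3 difference (-0.081 to 0.17), and at the high dose Cntf (-0.44 to 0.63, with -0.05 without high-dose replicate 3), Lif (-0.56 to 0.063), Nefh (-0.27 to 0.042, with 0.004109 without high-dose replicate 2), Nefm (-0.000313 to 0.37) and Ptpn11 (-0.005472 to 0.06). S1pr3 at the high dose ran from -0.086 to 0.57. With the 3 libraries low in Cx3cr1 left out, a choice made after seeing the data, calls numbered 1 at the low dose, 37 at the high dose and 0 for the difference, and Aspg, Cebpd, Iigp1 and Serping1 lost their calls and Lcn2 gained one. The causes were not tested. Of the other values of single genes, 1498 were counted as the same, 36 lost a call, 23 gained one and 1 moved beyond the spread between replicates. For high-dose values of the 10 genes, the same means a shift within the spread among high-dose replicates, whatever the call or sign. For all other values it means that direction and call were kept. Depth limits Timp1 and Lrg1, with few counts in controls.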
